A study of Drosophila melanogaster with 6 samples.

Results

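The loci described here are autosomal places at which regions enriched for USP-GFP, the GFP-tagged fly nuclear receptor Ultraspiracle, lay densely side by side. They were chosen by position in the authors' deposited list of regions. On the chromosome arms 2L, 3L and 3R, neighbours whose centres lay at most 5000 bp apart were chained, and the regions of chains with 5 or more members were kept. Regions of 3L with centres from 17550000 to 18070000 were left out. This gave 509 regions, out of 2260 on these arms and 3791 in the whole list. They form 74 complete loci with 507 regions, and 2 further regions of 3L remain from a chain of 5 that the left-out stretch cuts. For comparison, 657 regions of the same arms stood in no chain.

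USP is the fly member of the retinoid X receptor family. It binds DNA as a pair with the ecdysone receptor EcR, and this pair carries the signal of the steroid hormone ecdysone to its target genes, with hormone-bound receptor activating them and unbound receptor often holding them silent. Pulses of ecdysone drive the steps of metamorphosis, in which larval tissues are broken down and adult structures form. Genes that respond first to the hormone include several that encode transcription factors, which in turn switch on later tissue-specific genes.

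ChIP-seq was done in 3 libraries, with polyclonal anti-GFP from rabbit, beside 3 input DNA libraries. All are of Drosophila melanogaster of the strain USP-GFP, taken 12 hours after the white prepupal stage, with the genotype PBac{y[+]-attP-3B}VK00033 and a transgene that carries the usp coding region from the genome. The labels' protocols name y; bw cn sp flies instead, and the sources used here do not settle which were used. They also do not name a tissue, the sex of the animals, the number of animals per library or the promoter of the transgene, so the regions pool whatever cells the collected animals held. The list gives 1 score per region and none per library. No spread between replicates can therefore be shown, and the depth of the libraries is unknown. Input DNA was the sole control, so a listed region is a place of ChIP enrichment and not by itself a proven USP site. Neither a genome sequence nor gene models of release 5 of the fly genome were used here, so loci are named by their release 5 coordinates and no gene or sequence is assigned to them.

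The 74 loci were spread over all 3 arms, with 26 on 2L, 20 on 3L and 28 on 3R. Of the listed regions, 25.6% on 2L (95% Wilson interval 22.4 to 29.0%, 171 of 668), 17.2% on 3L (14.8 to 20.0%, 137 of 795) and 25.2% on 3R (22.3 to 28.3%, 201 of 797) belonged to them. The lower share on 3L is set in part by the rule, since 43 of the 69 regions in the left-out stretch of 3L were in chains of 5 or more. With these counted the share on 3L was 22.6%. Together the members covered 284.9 kb, or 26.5% of the sequence covered by all listed regions of these arms, although they made up 22.5% of those regions. The intervals cover counting error alone and treat regions as independent, which chained regions are not.

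The sizes of the loci are set in part by the rule, which asks for 5 or more regions with neighbouring centres at most 5000 bp apart. The median locus held 6 regions and spanned 9.53 kb from the first start to the last end, with quartiles of 7.17 and 12.6 kb and a range of 2.54 to 32.2 kb. Regions covered a median of 34.2% of that span, from 15.4 to 79.5%. There were 26 loci with 5 regions, 20 with 6, 7 with 7, 5 with 8 and 8 with 9. The remaining 8 loci held 10 or more. The 3 arms had similar values, with a median of 6 regions on each, median spans of 9.09 kb on 2L, 10.2 kb on 3L and 9.53 kb on 3R, and median highest scores of 23.7, 25.2 and 28.6. The score is the authors' value, read here as the −log10 p-value of their peak caller, so higher scores stand for smaller p-values on a log scale.

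**Figure D1:**
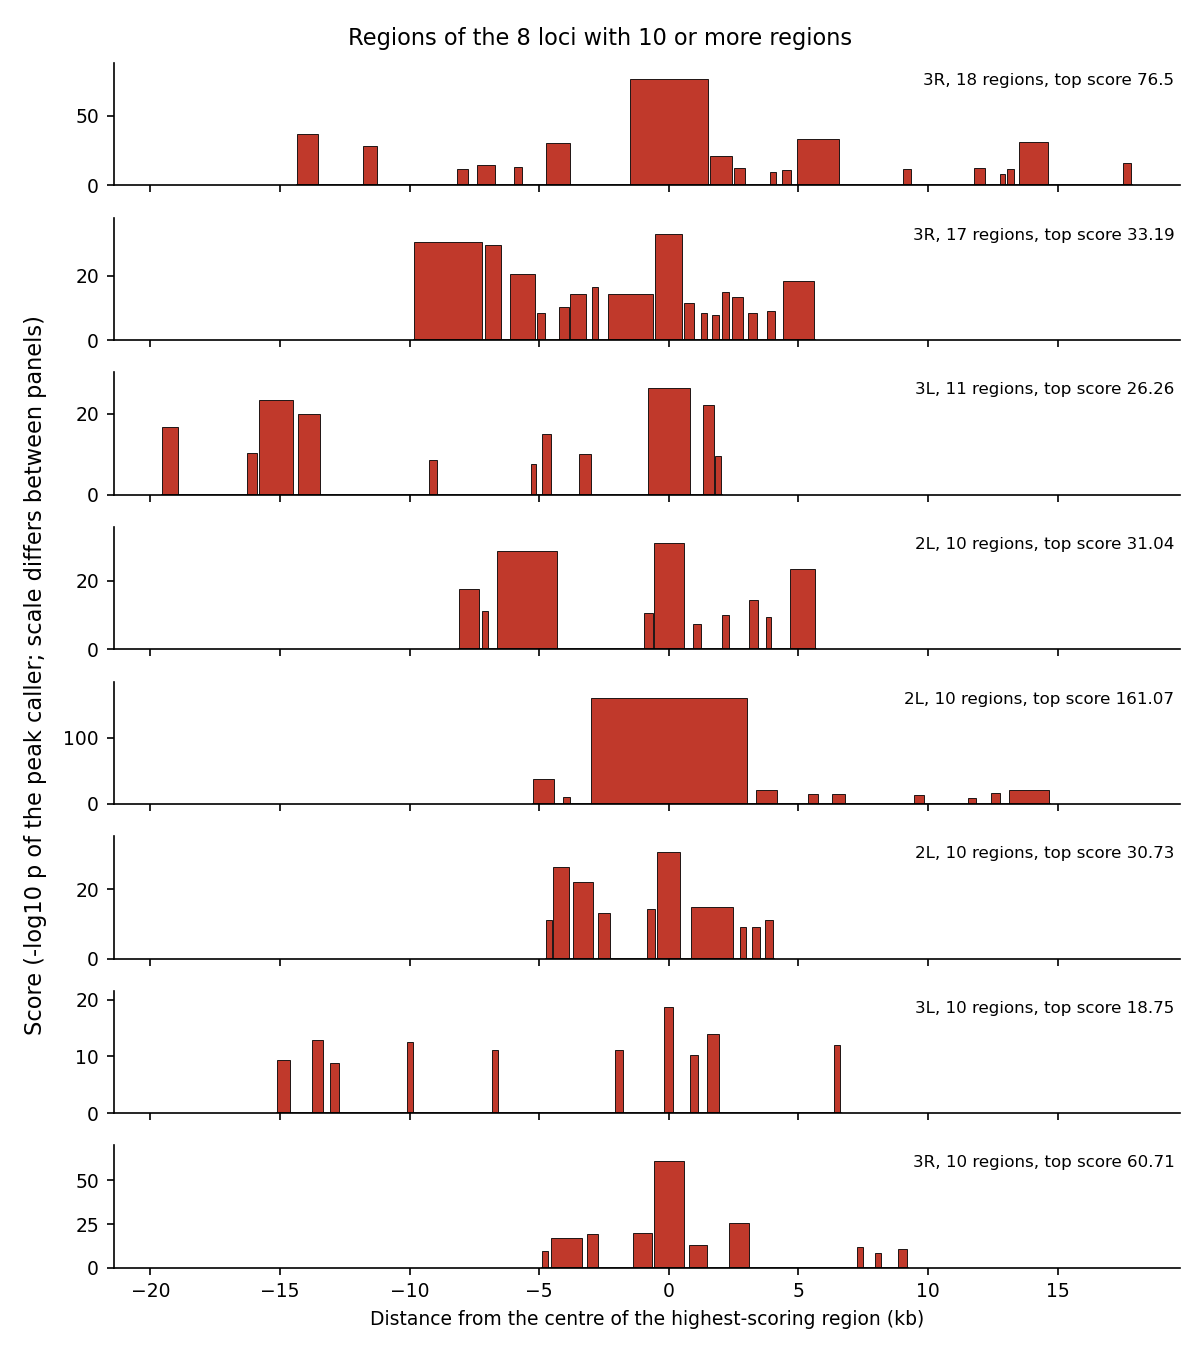
Each panel shows 1 of the 8 loci with 10 or more regions. The horizontal axis is the distance in kb from the centre of the highest-scoring region and the vertical axis is the score, with its own scale in each panel; a bar stands for 1 region and its width is that of the region. The 3R locus of 17 regions is nearly filled by regions, while the 3L locus of 10 regions with a highest score of 18.75 is mostly empty.

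The locus with most regions lay on 3R from 12047507 to 12079695, with 18 regions over 32.2 kb, of which 39.8% was covered. It held several separate strong regions besides its highest one. The first region, at 12047507 to 12048316, scored 36.86, and the region at 12050056 to 12050588 scored 28.06. After 3 weaker regions with scores from 11.49 to 14.88 came one of 30.56 at 12057108 to 12058025. The highest, 3008 bp wide at 12060350 to 12063357, scored 76.5, which is 39.64 above the second. Downstream, in the direction of higher coordinates, regions of 33.22 at 12066807 to 12068435 and of 31.04 at 12075373 to 12076485 stood among weaker ones with scores from 8.41 to 20.9. In all, 7 of the 18 regions scored at least 20, and they were spread over the whole length of the locus. Only 6.55 kb before it, a further locus of 8 regions ran from 12032325 to 12040961, with its highest score of 27.53 in its first region. The pair held 26 regions in 47.4 kb, more than any other pair or trio of loci within 50 kb of each other.

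The next locus by size was of another build. On 3R from 5164298 to 5179725, 17 regions filled 77.5% of 15.4 kb, with a median gap of 187 bp between neighbours and 15 of 16 gaps of at most 500 bp. Its scores were moderate. The highest was 33.19, in the region at 5173612 to 5174663, and the second was 30.58, in the 2629 bp region that opens the locus at 5164298 to 5166926. The neighbour of the latter, at 5167038 to 5167655, scored 29.67 and the region at 5167992 to 5168980 scored 20.63, while the 13 others lay between 7.71 and 18.34. When regions separated by at most 500 bp were joined, the 17 regions became 2 stretches.

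Another arrangement was found on 3L from 11235187 to 11256751, where 11 regions covered 31.3% of 21.6 kb. Its stronger regions sat towards the ends, with scores of 23.38 at 11238921 to 11240249 and of 19.87 beside it on one side, and of 26.26 at 11253937 to 11255543 and 22.19 beside it on the other. The 4 regions in the middle scored from 7.5 to 14.87.

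Among the 5 loci with 10 regions, that of 2L from 5287554 to 5307483 held the highest score and the widest region of all members. This region of 6010 bp, at 5289804 to 5295813, scored 161.07, which is 122.97 above the next region of the locus, 38.1 at 5287554 to 5288393. The other 8 regions scored from 9.28 to 21.16 and lay mostly on the side of higher coordinates. Regions covered 57.4% of this locus. The locus of 3R from 17762262 to 17776358 likewise had a single high region, 60.71 at 17766587 to 17767734, with the second at 25.51. By contrast, the 2L loci at 158598 to 172343 and 7418341 to 7427099 had top scores of 31.04 and 30.73 with the second only 2.46 and 4.40 lower. The 3L locus at 16152802 to 16174505 was the most thinly covered of all 74, with 15.4% of 21.7 kb, and none of its regions exceeded 18.75 or 507 bp.

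The 13 loci with 8 or 9 regions showed the same mix. Their highest scores ran from 18.02, on 3L at 15580792 to 15591006, to 79.41, on 2L at 478354 to 489199. In the latter locus the region of 79.41 lay at 480534 to 481635 beside one of 36.11 at 479798 to 480311, and the other 6 scored from 9.77 to 22.27. On 3L from 9360270 to 9377209 the highest region, 70.9 at 9376450 to 9377209, was the last of 8, and no other exceeded 20.63. Intermediate highest scores were found in the 3R loci at 26108831 to 26123286 (41.96) and 16078912 to 16090803 (41.83) and the 2L loci at 16520933 to 16536108 (39.47) and 12478398 to 12491977 (36.42). Besides the 3R locus at 12032325 named above, the remainder had highest scores of 31.94 on 3L at 16031063 to 16041569, 28.82 on 3R at 17673816 to 17684826, 28.31 on 2L at 19133436 to 19145966 and 25.91 on 3L at 19890205 to 19902800, and the 2L locus at 16267393 to 16280115 had 18.75. The number of regions in a locus and its highest score were loosely related across the 74 loci (Spearman rho 0.29), and the number and the median score were not visibly related (rho −0.05). These are descriptions, and a locus with more regions has more chances to contain a high one.

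Some small loci were strong. On 3L from 3240173 to 3251650, 6 regions covered 69.0% of 11.5 kb and included the second highest score of all members, 91.99 in the 3651 bp region at 3245754 to 3249404. Its outermost region on the low side, at 3240173 to 3241904, scored 39.47. On 3R from 5045811 to 5056427 a region of 63.58 at 5054660 to 5055960 stood among 4 with scores of 7.01 to 16.41. On 3R from 13525869 to 13533113 the picture differed, since all 5 regions were strong. Their scores were 57.86, 21.47, 19.45, 53.95 and 22.99 in order along the arm, and the lowest of them was the highest minimum of any locus. The region of 53.95, at 13529898 to 13530345, was 448 bp wide, and it is the only one of the 10 highest members that did not lead its own locus. The other loci among the 10 with the highest scores were on 3L at 16997177 to 17004270 (48.3, in the first of 7 regions) and on 2L at 19571400 to 19576976 (43.82).

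Weak members were common. In 70 of the 74 loci at least 1 region scored under 12, and in 58 at least 1 scored under 10. In 20 loci no region reached 20. Regions in no chain had a median score of 12.32 and a lower quartile of 10.1, and 15.2% of them reached 20. With 5 or more regions per locus, such counts are therefore no trait of the loci by themselves. The highest region led the second by at least 10 in 23 loci and by less than 2 in 12, with a median lead of 5.67 and quartiles of 2.87 and 14.0. It was also the widest region in 32 of 74 loci. It was the first or last region in 16 loci (21.6%). Of all 507 regions of these loci, 148 (29.2%) were first or last. That share pools regions, so large loci lower it, and it is not a like value for the share of loci.

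**Figure D2:**
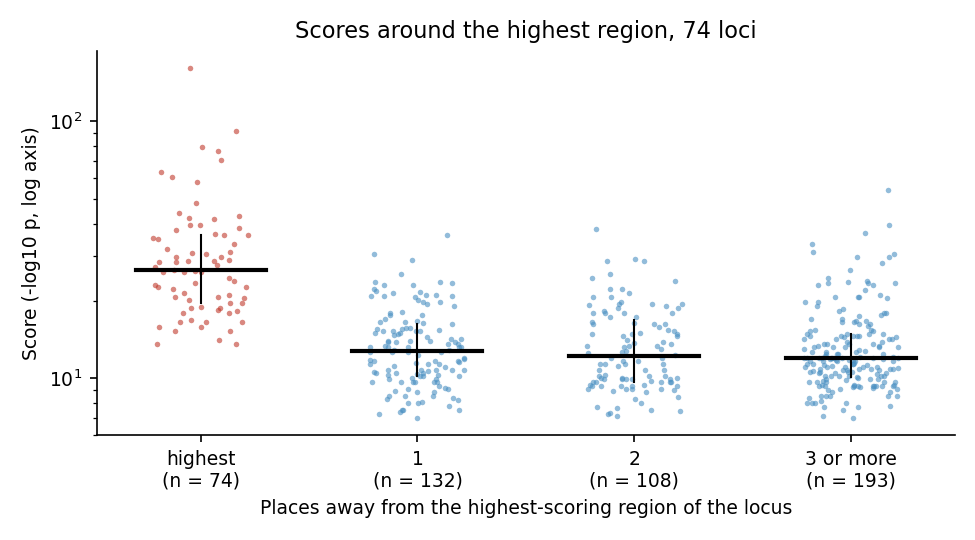
Scores (log axis) of the 507 regions of the 74 complete loci, by the number of places between a region and the highest-scoring region of its locus. Points are regions, thick bars are medians and thin lines are quartiles. Beyond the highest regions, whose median was 26.4, the medians of the 3 other groups lie between 11.97 and 12.77.

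Away from the highest region the median score changed little with distance. Regions next to it had a median score of 12.77 (order-statistic 95% interval 11.5 to 13.9, 132 regions), those 2 places away 12.17 (10.8 to 13.8, 108 regions) and those 3 or more places away 11.97 (11.4 to 12.4, 193 regions). These and the other order-statistic intervals given here treat regions as independent, which regions of 1 locus are not. In terms of distance the medians were 11.7 under 2 kb, 12.6 from 2 to 5 kb and 12.0 from 5 kb on. All lie near the median of 12.32 for regions in no chain. Leaving out the highest region lowers such medians by construction, so they are values and not a comparison of like with like.

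**Figure D3:**
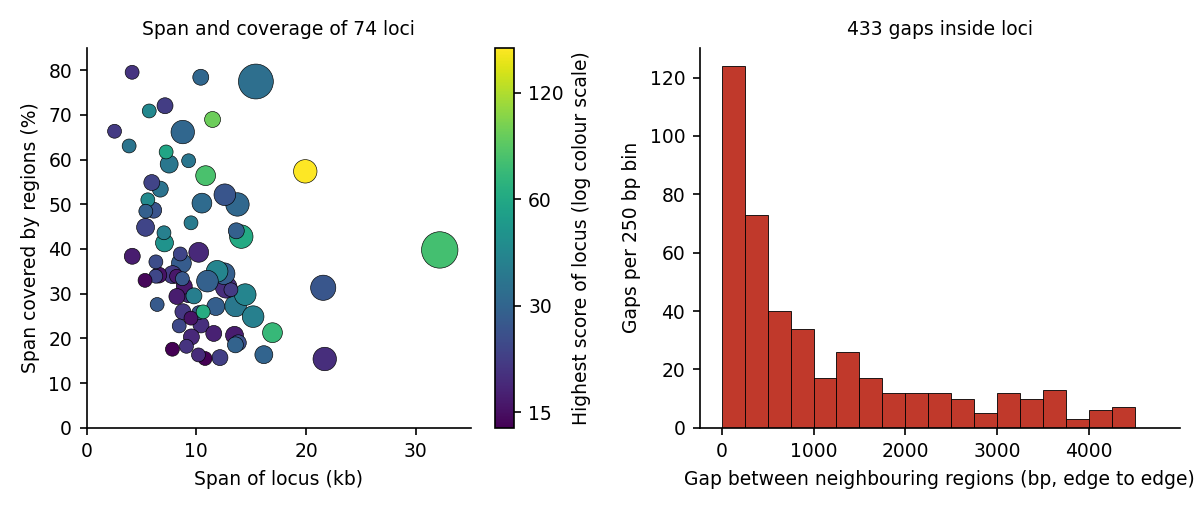
Left, the span of each of the 74 complete loci in kb against the percentage of it covered by regions; larger points have more regions and the colour gives the highest score on a log scale. Right, the number of gaps between neighbouring regions inside loci, edge to edge, in bins of 250 bp. The median gap was 616 bp. The rule bounds the gaps, since neighbouring centres lie at most 5000 bp apart.

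Gaps within loci, which the rule bounds from above, ranged from 47 to 4499 bp. Their median was 616 bp (order-statistic 95% interval 484 to 756 bp, 433 gaps), and 197 of 433 or 45.5% were of at most 500 bp, while 90 or 20.8% exceeded 2000 bp. Close neighbours thus made up much of some loci. Joining regions at most 500 bp apart left 1 or 2 stretches in 10 loci, 3 in 18, 4 in 17 and 5 or more in 29. Few stretches mean few long gaps, so the coverage of these classes follows in part from how they were made. The 10 loci of 1 or 2 stretches had a median coverage of 66.2% and a median highest score of 32.0. In the loci of 3 or 4 stretches these medians were 33.9% and 22.6. The 29 loci of 5 or more stretches had a median coverage of 29.8%, a median span of 13.5 kb and a median highest score of 28.6, so the highest score showed no steady order over the 3 classes. When the joined stretches were chained anew, 24 loci remained with 5 or more, the largest with 11.

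The most filled loci, singled out after their values were seen, were those covered for at least 70%. They were the 17-region locus of 3R above, 2L from 221307 to 225450 (79.5%), 2L from 19154895 to 19165297 (78.4%), 3L from 21000810 to 21007953 (72.0%) and 2L from 15908054 to 15913757 (70.9%). Of the 3 narrowest loci, 2L from 12506920 to 12509461 put 5 regions into 2.54 kb as a single stretch, with a highest score of 20.63. The others were 3L from 10656356 to 10660226, with a top score of 35.17 in 3.87 kb, and the 2L locus at 221307, with 19.7 in 4.14 kb. Loci with more of their span covered tended to have higher median scores (Spearman rho 0.55 across 74 loci). Coverage and score come from the same peak calls.

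Loci themselves came in groups in places. Neighbouring loci of an arm lay a median of 501 kb apart, from 6.55 kb to 8279 kb, and 12 of 71 neighbouring pairs were at most 50 kb apart. The 71 pairs include that of 3L on either side of the left-out stretch, whose distance of 731 kb is set by the rule. The 12 close pairs joined 22 loci into 10 groups. Apart from the pair on 3R described above, the groups with most members were a trio on 2L from 12478398 to 12532475, with 9, 5 and 5 regions in 54.1 kb, and a trio on 3R from 17412874 to 17483520, with 5, 6 and 6 regions in 70.6 kb. In fixed bins of whole Mb, the fullest of 3R, from 17 to 18 Mb, held 6 loci and the fullest of 2L, from 12 to 13 Mb, held 4. The number of listed regions in each bin is not given here. Of 28 such bins on 3R, 13 held any locus, as did 15 of 23 on 2L. The bins of 3L are not compared, because the rule takes out a stretch of that arm with 43 regions in chains of 5 or more.

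The comparison with single regions asked whether members of dense loci differ from regions that stand in no chain. Because the positions, scores and widths all come from the same ChIP and input contrast, the values are set side by side without a test. Members had a median score of 13.2 (order-statistic 95% interval 12.6 to 13.9) with quartiles of 10.2 and 18.8. Regions in no chain had 12.3 (11.9 to 12.7) with quartiles of 10.1 and 16.4. The medians thus differ by 0.91, and the lower quartiles are nearly the same. The upper range was somewhat fuller in the loci than in regions in no chain. Scores of at least 20 made up 21.8% of members (111 of 509) and 15.2% of regions in no chain (100 of 657). In chains of 4 they made up 20.7% (48 of 232), so the fuller upper range was not particular to the loci. Within the loci they made up 25.8% for chains of 5, 18.15% for 6 to 9 regions and 27.1% for 10 or more. At 30 or more the shares were 7.27% of members, 8.62% in chains of 4 and 5.63% in no chain. At 50 or more there were 9 members and 7 regions in no chain.

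Widths differed mostly in the upper range. The median width was 379 bp (352 to 407 bp) in the loci and 327 bp (316 to 343 bp) outside chains, and the upper quartiles were 653 and 484 bp. Regions of at least 1000 bp made up 11.8% of members (60 of 509) and 3.50% of regions in no chain (23 of 657). In chains of 4 they made up 9.48%. Within the loci they made up 12.9% for chains of 5, 9.61% for 6 to 9 regions and 16.7% for 10 or more. A width of 2000 bp was reached by 13 members and 2 single regions. The 10 widest members ran from 2136 to 6010 bp and scored from 20.79 to 161.07. They include 1 of the 2 regions kept from the cut chain of 3L, 2286 bp wide at 18070730 to 18073015, with a score of 46.55. Within classes of width the median scores did not differ in a steady direction. From 200 to 300 bp the median scores were 10.2 in loci and 10.5 outside, from 300 to 500 bp 12.6 and 13.2, from 500 to 1000 bp 18.8 and 16.9, and from 1000 bp on 26.1 and 26.2. Width and score rose together in both sets (Spearman rho 0.73 across members and 0.57 across single regions), as they come from one peak call.

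**Figure D4:**
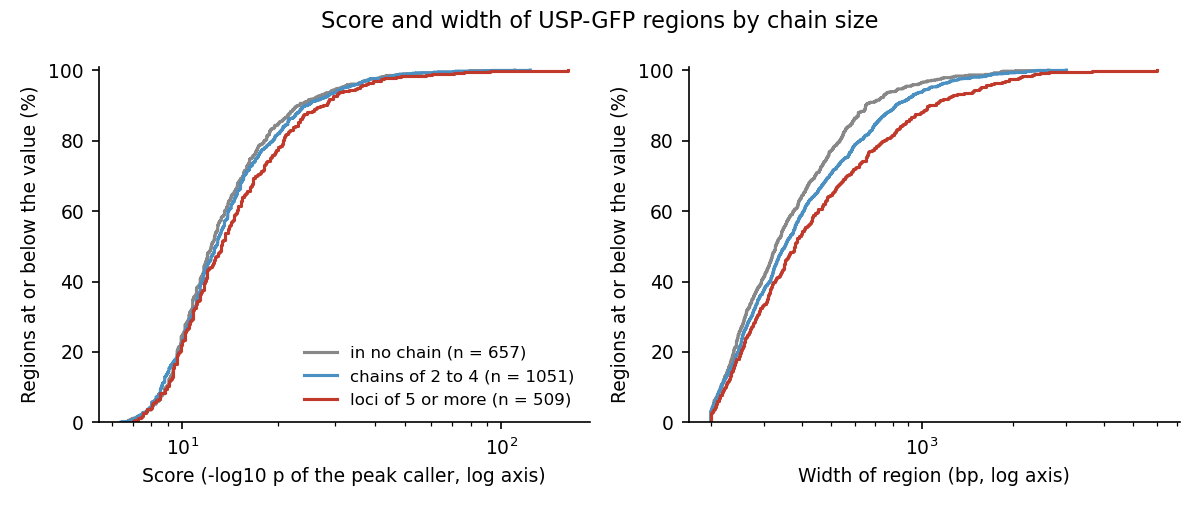
Cumulative percentage of regions at or below each score (left) and width (right), both on log axes, for the 509 regions of the loci, 1051 regions in chains of 2 to 4 and 657 regions in no chain. The score curves nearly coincide at the low end, while the width curve of the loci runs to the right of the others above about 300 bp.

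Chains of 2 to 4 regions lay between the other groups, with a median score of 12.8 and a median width of 352 bp (1051 regions). Just outside the limit, the 58 chains of 4 regions had a median score of 12.6, a median width of 374 bp and a median highest score of 21.4. Regions covered a median of 37.9% of the span of these chains, against 33.9% in the complete chains of 5. Just inside, the 26 complete chains of 5 had a median highest score of 23.7, and the 132 kept regions from chains of 5 had a median score of 13.6 and a median width of 430 bp. Loci of 6 to 9 regions had median values of 12.9 and 353 bp, and those of 10 or more 13.7 and 401 bp, so neither measure rose steadily with the number of regions. The longest link between centres inside a locus was 4943 bp, and 12 of 433 links were of 4500 bp or more. The nearest listed region on either side of a locus lay at least 5089 bp away, centre to centre, with a median of 20.5 kb, and 5 of 148 such distances were under 5500 bp.

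Part of the scores can be turned into a height. Many scores of the list repeat exactly and fall on the values that a Poisson distribution with a mean of 63.82 reads would give. This mean was the best of those searched for scores under 40 on 2L, 3L and 3R, and 43.1% of these scores lay within 0.01 of such a value. The share that would do so by chance was not tested, and the mean is applied here to higher scores too. Among members 257 of 509 scores or 50.5% (95% Wilson interval 46.2 to 54.8%) lay within 0.01 of such a value, as did 270 of 657 or 41.1% (37.4 to 44.9%) of those in no chain. For these the implied read pileup was a median 2.04 times the mean in the loci (quartiles 1.90 and 2.29) and 1.99 times outside them (1.90 and 2.18). The highest regions of 37 of the 74 loci could be read in this way and had a median of 2.60 times. These folds restate the scores on the scale of reads and say nothing of the input at each place.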

How the data were processed

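The deposited list was made by the authors with MACS on FlyBase release 5, per the file headers; the submitters' processing notes name CASAVA 1.7.0.2 and 1.7.0.3, BWA, MACS2 and BDGP5. The sources used here give neither the calling settings nor whether libraries were pooled. Per the labels' protocols, animals were reared at 25 °C and fixed for 15 min in 1.8% formaldehyde. The deposited score is read as −log10 p from its values, since the header names no quantity. The other deposited values are starts and ends; starts count from 0, and 1 was added for printing.

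Chains, spans, gaps and medians were computed in Python 3.11.15 with pandas 2.3.3 and scipy 1.17.1, and the code was tested on simulated positions. Medians have distribution-free binomial intervals. Locus values use the 74 complete loci. Loci named in full are those with 8 or more regions, the 10 with the highest score, and the 3 widest and 3 narrowest; every strong region of the 3 loci with most regions is described. The members, groupings and limits were chosen with earlier results of these data known, and no test was made. Planned work on genes and sequences was not run, because only a release 6 gene table was used here.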

Additional observations from a re-analysis of the deposited data

How the results depend on the processing

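Of 76 values recomputed under 13 alternatives, 54 stayed within set limits. These were 1.5 times for counts and the interval of the reported median for spans, coverage and gaps. For the differences of medians they were the range that the intervals of the 2 medians allow. No difference changed sign, and the other quantities could not. The other 22 moved past these limits. With links of 2000 bp there were 28 loci and 176 members, with a median span of 5.63 kb, 57.3% covered and a median gap of 342 bp. With links of 10000 bp there were 816 members, a span of 14.1 kb, 23.01% covered and a gap of 905 bp. Chains of 4 or more gave 130 loci with a span of 7.18 kb, and chains of 6 or more 48 loci with 11.2 kb. Merging regions within 500 bp left 24 loci and 138 members, a span of 12.0 kb and a gap of 1555 bp. Scores from the median of 12.7 up left 16 loci and 95 members, 57.6% covered, with differences from single regions of 3.69 in median score and 240 bp in median width. The reported differences were 0.91 and 52 bp, and the intervals of the 2 score medians allow a difference from −0.14 to 1.96. Against chains of 2 to 4 the differences were smaller, 0.46 and 27 bp, and still counted as within the limits. Leaving out the 2 regions of the cut chain, or single regions inside the left-out stretch, were alternatives chosen after seeing the data. Neither moved a value past these limits. The former could not change the values of loci and gaps, which use complete loci alone. No paired analysis was possible because each region has a single score for all libraries together, and for that reason no replicate was left out either. The setting for sequences was not run. With the depth unknown, absence from the list says nothing of binding at a place.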

Other observations

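The same chaining, applied to the other sequences of the list after its values had been seen, gave 10 chains of 5 or more on the X with 60 of 335 regions (17.9%) and none above 8 regions. The arm 2R had 21 such chains with 141 of 608 regions (23.2%), the largest of 11. Chromosome 4 had 2 such chains of 5, with 10 of 59 regions (16.9%). The unplaced collection Uextra had 18 chains with 188 of 479 regions (39.2%), the largest of 21, and the Het sequences, U and the mitochondrial genome had none. Uextra joins fragments of unknown place, so distances within it need not be distances in the animal.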
